A study of Homo sapiens with 12 samples.

Results

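The interferon-stimulated genes examined here are 38 genes that cells switch on in response to interferon, and they were chosen by name from the 58735 genes of the count table. Each of the 38 symbols occurred once in the table. The RNA came from TIGK cells, human keratinocytes of the gingiva that were made immortal with telomerase (hTERT). All cells were kept at 48 mM glucose in a base medium made without arginine. They received either 500 μM L-arginine (Arg) or none (the untreated control), and RNA was taken after 24 or 48 h. Each of the 4 groups, control and Arg at 24 h and at 48 h, had 3 libraries (replicates A, B, and C), 12 in all. No group at normal glucose is compared here, and all groups come from a single cell line. Nothing in the labels says whether the replicates were grown as separate cultures, so the p-values measure the spread between these libraries, which may be technical. RNA was measured in bulk, so fewer expressing cells and less RNA per cell cannot be told apart.

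Interferons are secreted proteins that bind receptors on the cell surface and act through Janus kinases. These phosphorylate transcription factors such as STAT2, which joins IRF9 in a complex that enters the nucleus and binds a DNA element in the promoters of its target genes. The targets sense viral RNA, tag proteins, degrade RNA, or block the entry and release of viruses, and several of them in turn amplify the response. Keratinocytes, the epithelial cells that line the gingiva, express many of these genes at a low tonic level without infection.

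The libraries held between 16542243 and 19040964 counts, and the 38 genes together took between 18583 and 29766 of them. The untreated control replicate B at 48 h stood apart from the other libraries of its group. A chi-square comparison of counts over genes, divided by its degrees of freedom, gave 20.9 for B against A and 23.9 for B against C, whereas A against C gave 3.66. The 24 h groups were also uneven, to a smaller degree. Control B at 24 h gave 12.3 against A and 12.5 against C, where A against C gave 6.54. Arg replicate A at 24 h gave 12.4 against B and 10.9 against C, where B against C gave 5.41. With Arg at 48 h the values were 4.52 to 8.45. The mitochondrial genome's share of the counts in the 48 h controls was 1.55% in B, 0.906% in A, and 0.707% in C. This share also differed between the groups at 24 h, from 1.197% to 1.30% in the controls and from 0.624% to 0.802% with Arg, and was 1.14% to 1.31% with Arg at 48 h. Its part in the results was not tested. The calls that rest on control replicate B at 48 h are given with and without it. It was singled out from these same counts, so p-values without it leave out part of the spread among the controls. All 11 keratinocyte markers were found in every group, with a summed level between 44292 and 57058 CPM (counts scaled to a common library size with TMM factors). The 6 leukocyte markers summed to between 0.99 and 3.57 CPM, with 2 of them at 0 in all libraries, the 3 endothelial markers to between 0.16 and 2.13 CPM, and the 4 melanocyte markers to between 1.03 and 3.06 CPM with 1 at 0. The 6 fibroblast markers summed to between 30.3 and 54.3 CPM at 24 h and between 72.7 and 103 CPM at 48 h. None was at 0 in all libraries, but 3 had a mean under 1 CPM, and most of the sum came from DCN and COL1A1. DCN had a mean of 31.7 CPM in the control at 24 h and 66.7 CPM at 48 h, and COL1A1 of 12.4 and 24.4 CPM. The part of the fibroblast markers in the changes with time was not tested.

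The DNA element bound by the complex that holds STAT2 and IRF9 has a core of GAAA, any 2 bases, and GAAA, which reads TTTC, any 2 bases, and TTTC on the other strand. It was searched on both strands in the 250 bases before the start of each gene in the RefSeq promoters (GRCh38.p14), where 31 of the 38 genes had an entry. Of these, 21 (67.7%) held the core, whereas 1014 of all 27305 genes with an entry (3.71%) did. A match is a description of the letters and not a measured binding site. The stretches below belong to 4 genes that fell with Arg at 24 h (ISG15, HERC5, RSAD2, ISG20) and to 4 others of differing behavior (IFIT1, SAMD9, IFI6, BST2), each read 5′ to 3′ on the strand of its gene, with the core in capitals.
ISG15, chr1:1013374-1013409, plus strand: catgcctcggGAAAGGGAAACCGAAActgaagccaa
HERC5, chr4:88456984-88457064, plus strand: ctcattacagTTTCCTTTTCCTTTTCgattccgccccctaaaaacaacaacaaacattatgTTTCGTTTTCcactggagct
RSAD2, chr2:6877622-6877651, plus strand: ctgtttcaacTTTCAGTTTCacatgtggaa
ISG20, chr15:88638937-88638966, plus strand: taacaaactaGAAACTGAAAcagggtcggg
IFIT1, chr10:89392497-89392539, plus strand: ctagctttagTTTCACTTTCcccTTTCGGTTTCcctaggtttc
SAMD9, chr7:93118096-93118125, minus strand: tctgagaaatGAAACTGAAAccaaacctat
IFI6, chr1:27672266-27672358, minus strand: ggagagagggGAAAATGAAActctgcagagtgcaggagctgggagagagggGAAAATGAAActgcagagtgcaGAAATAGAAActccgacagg
BST2, chr19:17405735-17405770, minus strand: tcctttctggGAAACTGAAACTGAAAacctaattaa
ISG15 held 2 overlapping cores that began 113 and 107 bases before the start, and BST2 held 2 that began 130 and 124 bases before it. The starts are those of the RefSeq entries. In ISG15, RSAD2, and ISG20 they lie well inside the span of the gene in the count table. A gene with several entries counted as holding the core if any of them did. RSAD2 had a further entry, at chr2:6865635-6865934, that spans its start in the count table and held no core. HERC5 held 3 cores on the other strand and IFI6 held 3 as written. Neither DDX58 (RIGI in RefSeq) nor STAT2 held the core in this window.

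The 38 genes differed widely in level. Per kilobase of exon (FPKM, computed here from the counts and the exonic lengths in the table), the highest means over the 12 libraries were 187 for BST2, 92.7 for ISG15, 51.3 for IFITM3, and 40.9 for IFI6. IFIT3 (26.4), OASL (20.7), IFIT2 (18.1), and IFIT1 (15.2) followed. RSAD2 stood at 2.05 FPKM and ISG20 at 0.629 FPKM. At the low end, IRF9 had 35 counts over the 12 libraries, XAF1 had 27, and IFITM2 had 84. These 3 genes did not pass the filter on low counts in the comparisons of Arg with control, which left 35 of the 38. IRF9 overlaps AL136295.5 on the same strand (44 counts) and IFITM2 overlaps IFITM1 on the same strand (450 counts), so their low counts are uncertain. In all, 19 of the 38 genes overlap another gene of the table and 6 overlap one with more counts. IFIT1, IFIT2, and IFIT3 lie opposite LIPA (31802 counts), RSAD2 lies opposite CMPK2 (495 counts), and PARP9 and DTX3L lie opposite each other, so reads of such pairs may not be told apart without a stranded count. The IFIT, OAS, IFITM, and HERC genes are families of related sequence, and how the counting treated reads shared between relatives is not given in the sources used here. The 38 genes are also clustered in the genome, with 21 of them in 8 groups of neighbors within 200000 bases, such as IFIT2, IFIT3, IFIT1, and IFIT5 on chromosome 10 and OAS1, OAS3, and OAS2 on chromosome 12.

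At 24 h, Arg treatment was followed by lower levels of ISG15, RSAD2, ISG20, IRF7, DDX60, DDX58, OASL, and HERC5 and by a higher level of STAT2. Of the 35 genes tested, 8 (22.9%) fell and 1 (2.86%) rose at an adjusted p under 0.05 by edgeR's quasi-likelihood test with Benjamini–Hochberg adjustment over all genes. Over all 14279 genes tested, 3.84% fell and 2.79% rose, 6.63% together. The estimates of 26 genes were below 0 and those of 9 above, and the median log2 fold change was -0.25, against 0.0030 over all genes. At an unadjusted p under 0.05, 15 genes (42.9%) were lower and 2 (5.71%) higher, where 11.9% and 10.8% of all genes were. The libraries of the 2 groups did not overlap for 13 genes that were lower (37.1%) and 1 that was higher, against 13.4% and 12.9% of all genes. For any one of these genes, the smallest p that an exact permutation of 3 against 3 libraries allows is 0.1. Summed over the 38 genes, the level was 1253, 1182, and 1471 CPM in control replicates A, B, and C and 1044, 1194, and 1177 CPM with Arg, so that the sums of the groups overlapped. The share of mitochondrial counts moved with the groups at 24 h without overlap, as given above.

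ISG15 encodes a ubiquitin-like protein that is attached to other proteins during the interferon response. It lies on chromosome 1 (1001138 to 1014540, plus strand, GRCh38). Its level was 109, 74.4, and 152 CPM in control replicates A, B, and C and 54.6, 66.3, and 61.8 CPM with Arg. All 3 Arg libraries were below the lowest control, and the control libraries were spread over a wide range. ISG15 fell by 0.88 ± 0.17 (standard error, SE) on the log2 scale, with an adjusted p of 0.00471 by edgeR. HERC5, the main ligase that attaches ISG15 in human cells, was at 47.9, 42.6, and 60.7 CPM in the control and at 34.7, 39.6, and 38.9 CPM with Arg. Its groups did not overlap, and it fell by 0.42 ± 0.12 (SE, adjusted p = 0.0406, edgeR). The other genes of this role did not pass the test. HERC6, a relative of HERC5, had a log2 fold change of 0.16 and USP18, the protease that removes ISG15 and dampens receptor signaling, one of -0.09.

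Among the antiviral effectors, the estimates of all 12 genes were below 0 at 24 h, and RSAD2, ISG20, and OASL passed the test. RSAD2 encodes viperin, a radical SAM enzyme that makes a chain-terminating nucleotide. Its level was 13.0, 9.66, and 17.5 CPM in the control and 5.51, 6.12, and 6.07 CPM with Arg. The Arg libraries lay close together and below every control, and RSAD2 fell by 1.18 ± 0.20 (SE, adjusted p = 0.00168, edgeR), which is 0.441 times the control level. ISG20, an exonuclease that degrades RNA, was at 7.53, 3.39, and 10.8 CPM in the control and at 2.42, 3.20, and 2.10 CPM with Arg. Replicate B of the control was only just above the highest Arg library. ISG20 fell to 0.354 times the control level (SE 0.33 on the log2 scale, adjusted p = 0.0106, edgeR). OASL, a relative of the oligoadenylate synthetases that lacks their enzyme activity, was at 68.7, 60.6, and 99.8 CPM in the control and at 45.3, 58.1, and 56.6 CPM with Arg, again without overlap. It fell by 0.52 ± 0.14 (SE, adjusted p = 0.0395, edgeR).

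OAS1 and OAS2, oligoadenylate synthetases that activate RNase L, were lower in each Arg library than in any control but did not pass the test. OAS1 was at 14.5, 19.3, and 18.9 CPM in the control and at 14.2, 11.9, and 13.7 CPM with Arg, with a log2 fold change of -0.40 (adjusted p = 0.1, edgeR). OAS2 was at 26.8, 27.9, and 31.3 CPM and at 26.4, 20.6, and 25.3 CPM, with a log2 fold change of -0.25 (adjusted p = 0.212, edgeR). The gaps between the groups were small in both. IFIT1, which binds viral RNA that lacks the cap methylation of the host, was at 65.0, 74.1, and 93.3 CPM in the control and at 58.8, 65.5, and 63.7 CPM with Arg, and the groups overlapped. Its log2 fold change was -0.31 (adjusted p = 0.111, edgeR). MX1, a dynamin-like GTPase that traps viral nucleocapsids, was at 39.5, 30.8, and 39.2 CPM and at 30.7, 31.8, and 28.8 CPM, with overlap, and its log2 fold change was -0.26 (adjusted p = 0.166, edgeR). The log2 fold changes of OAS3, IFIT2, IFIT3, IFIT5, and MX2 were -0.18, -0.23, -0.02, -0.03, and -0.63, and none of the 5 passed the test.

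The RNA sensors were split. DDX58 encodes RIG-I, the helicase that recognizes viral RNA in the cytoplasm. It was at 53.8, 47.6, and 70.1 CPM in the control and at 38.7, 41.8, and 41.1 CPM with Arg, without overlap, and it fell by 0.50 ± 0.12 (SE, adjusted p = 0.0185, edgeR). DDX60, a helicase linked to RIG-I signaling, was at 35.9, 25.1, and 42.5 CPM in the control and at 21.5, 23.2, and 23.0 CPM with Arg. It fell by 0.62 ± 0.15 (SE, adjusted p = 0.0171, edgeR). IFIH1 (MDA5), the sensor of long double-stranded RNA, was at 22.8 ± 1.21 CPM (SD, n = 3) in the control and 23.2 ± 0.74 CPM with Arg, and its log2 fold change of 0.03 did not pass the test.

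STAT2 was the only gene of the 35 called higher at 24 h by edgeR. STAT2 lies on chromosome 12 (56341597 to 56360155, minus strand) and encodes a subunit of the complex that carries the interferon signal to the nucleus. Its level was 16.2, 24.3, and 19.8 CPM in the control and 27.9, 33.3, and 35.3 CPM with Arg. Each Arg library was above each control, and STAT2 rose by 0.68 ± 0.14 on the log2 scale (SE, adjusted p = 0.00634, edgeR), or 1.60 times. IRF7, an inducible transcription factor of the interferon genes themselves, went the other way. It was at 27.8, 23.7, and 23.6 CPM in the control and at 14.2, 18.8, and 13.9 CPM with Arg, without overlap, and it fell by 0.68 ± 0.13 (SE, adjusted p = 0.00531, edgeR). IRF1, a related factor, had a log2 fold change of 0.05 with a SE of 0.19.

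No membrane protein, ADP-ribosylation gene, or gene of the remaining group passed the test at 24 h. BST2, or tetherin, which holds budding virus at the cell surface, was at 160.5, 155, and 149 CPM in the control and at 152, 196, and 212 CPM with Arg. Arg replicate A lay within the control range and the other two above it, and the log2 fold change was 0.27 (adjusted p = 0.114, edgeR). IFITM3, which hinders fusion of virus and cell membranes, was at 66.0, 53.4, and 65.0 CPM and at 49.6, 65.3, and 59.1 CPM, with overlap and a log2 fold change of -0.09. PARP9 and DTX3L, a pair that acts in ubiquitin and ADP-ribose signaling, and PARP14, an ADP-ribosyltransferase, had log2 fold changes of 0.10, -0.03, and 0.14. IFI44 was at 25.0, 21.8, and 41.1 CPM in the control and at 19.2, 22.1, and 22.4 CPM with Arg, and its log2 fold change of -0.46 rested on the high control replicate C (adjusted p = 0.121, edgeR, and log2 fold change -0.15 without that library). SAMD9, a cytoplasmic antiviral factor, was at 39.5, 44.3, and 43.7 CPM and at 36.1, 37.5, and 35.5 CPM, without overlap, and IFI6, a small hydrophobic protein that inhibits apoptosis, was at 32.6, 33.7, and 28.8 CPM and at 23.0, 27.9, and 29.2 CPM, with overlap. Their log2 fold changes were -0.22 and -0.25 (adjusted p = 0.161 and 0.202, edgeR). The other members of these groups, IFITM1, IFI27, IFI35, IFI44L, and SAMD9L, had log2 fold changes of -0.38, -0.33, 0.11, -0.54, and 0.20 at 24 h and of 0.04, -0.05, 0.06, -0.59, and 0.20 at 48 h, and none passed the test at either time.

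**Figure D1:**
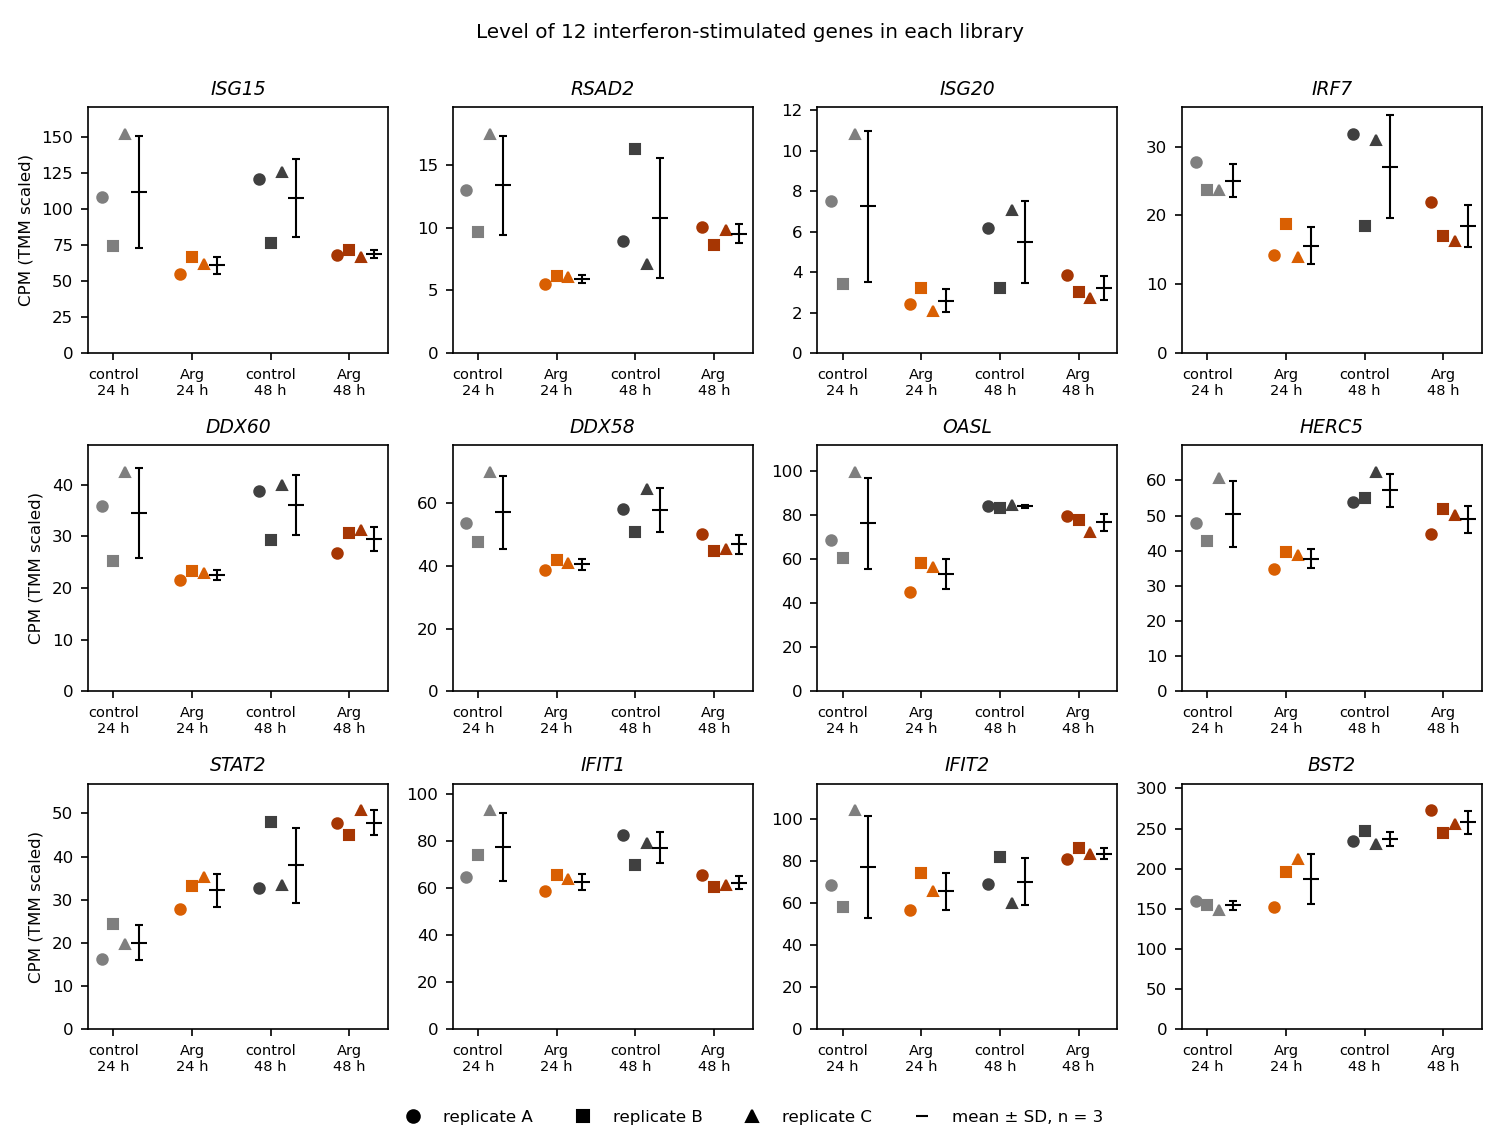
Level of 12 of the interferon-stimulated genes in each of the 12 libraries, in TMM-scaled CPM on a linear axis from 0, with a marker for each replicate letter and the mean ± SD of the 3 libraries beside it. ISG15, RSAD2, and ISG20 were spread widely over the 24 h controls and lay lower with Arg, and STAT2 was higher with Arg at 24 h.

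The control libraries at 24 h differed from each other in these genes. Of the 8 genes that fell, 7 had their highest control level in replicate C and 7 had their lowest in replicate B, and IRF7 was the exception to both. Over all 15148 genes of the 12-library model, replicate C was the highest 24 h control in 32.1% and replicate B the lowest in 37.1%. In 7 of the 8, the SD of the CPM was smaller with Arg than in the control. The 8 genes were picked for a lower level with Arg, and an SD in CPM depends on the level. This count can therefore not show a smaller spread with Arg. Over the 35 genes, the SD of log2(CPM + 1) was smaller with Arg in 23 (65.7%), against 49.8% of all genes tested. At 48 h it was smaller with Arg in 18 (51.4%), against 59.4% of all genes. RSAD2, ISG15, and IRF7 remained below an adjusted p of 0.05 in all 6 fits that left out 1 library, and STAT2 did so in 5. ISG20 passed in 4 of the 6, DDX58 in 3, DDX60 in 2, and OASL and HERC5 in 1 each. Without control replicate C, the log2 fold change was -0.28 for OASL, -0.27 for HERC5, and -0.33 for DDX58, each over 1.5 times smaller than with all libraries. The calls over all genes moved in the same fits. In the fit that left out control replicate B, 11 of the 35 genes and 10.4% of all genes were called, and without Arg replicate A these were 8 and 7.65%. Without control replicate C, 4 of the 35 and 2.98% of all genes were called, and without Arg replicate C these were 4 and 2.60%. Without control replicate A they were 5 and 2.45%, and without Arg replicate B 5 and 2.74%, against 9 and 6.63% with all libraries. The part of the spread among the control libraries in these calls was not tested.

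**Figure D2:**
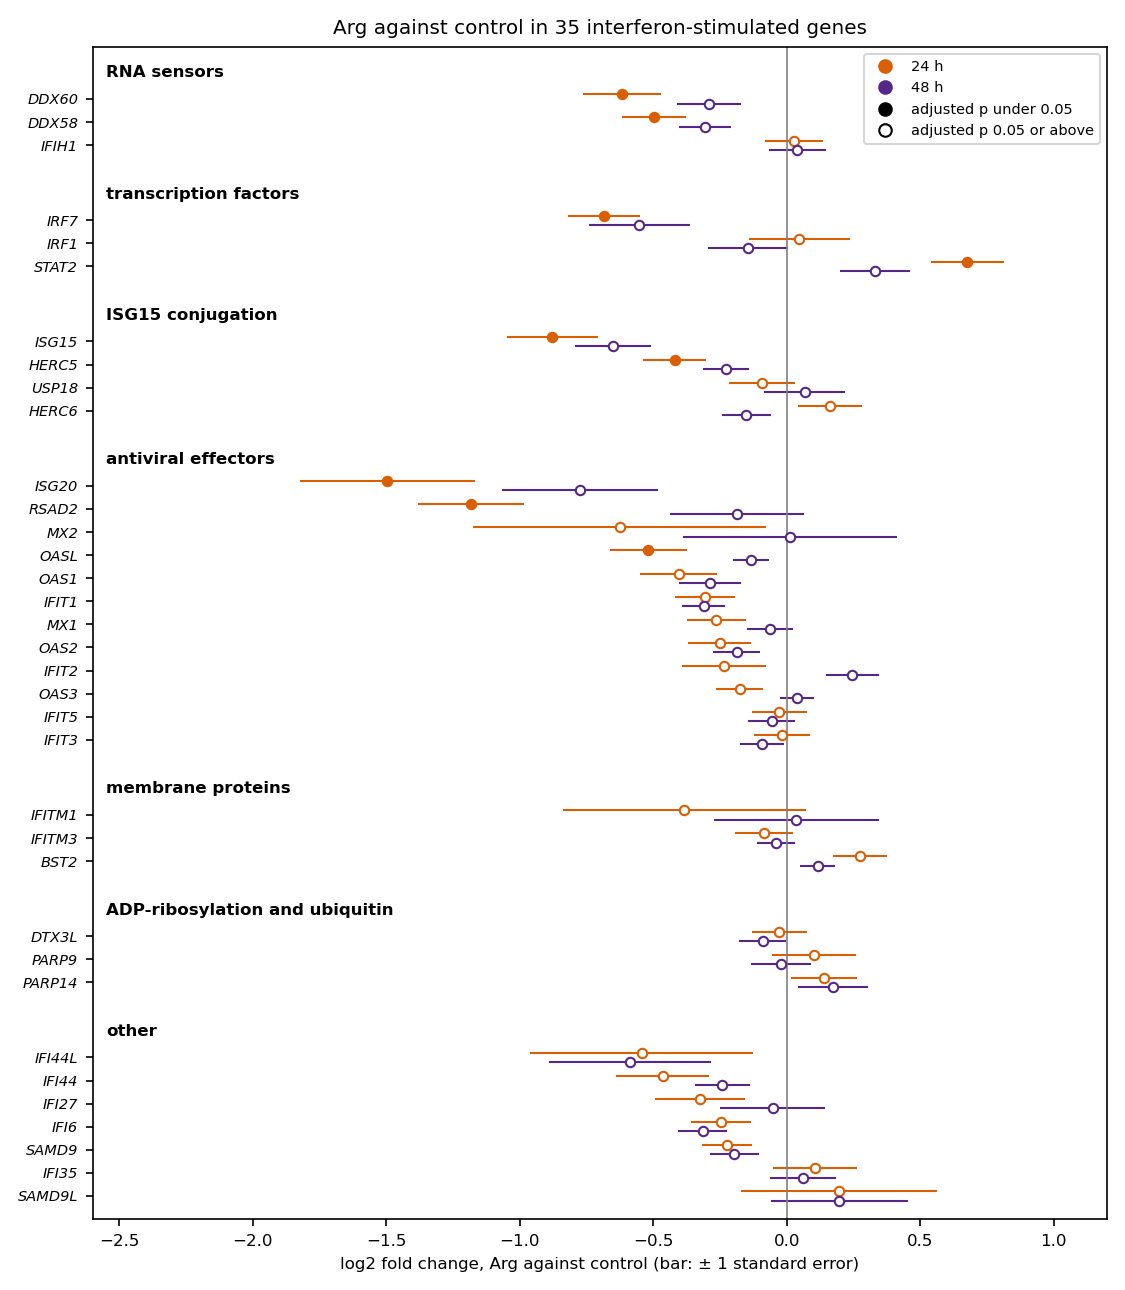
Log2 fold change of Arg against control for 35 interferon-stimulated genes, grouped by role, at 24 h (orange) and 48 h (violet), with bars of ± 1 SE and filled points at an adjusted p under 0.05 by edgeR. At 24 h, 8 genes fell and STAT2 rose, and at 48 h no point is filled.

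At 48 h, none of the 35 genes was called by edgeR's quasi-likelihood test at an adjusted p under 0.05, where 0.117% of the 14562 genes tested were. DESeq2 called 1 of them. At an unadjusted p under 0.05, 10 genes (28.6%) were lower and 2 (5.71%) higher, against 7.49% and 5.94% of all genes. The groups did not overlap for 11 genes that were lower (31.4%) and for 0 that were higher, against 8.51% and 8.56% of all genes. The estimates of 24 genes were below 0 and those of 11 above, with a median log2 fold change of -0.093, against 0.0018 over all genes. The 8 genes that fell at 24 h all had estimates below 0 at 48 h and STAT2 had one above 0. Of all genes that fell at 24 h and were tested at 48 h, 91.1% had an estimate below 0 at 48 h, so the same direction was common. The libraries of the 2 time points are different. Summed over the 38 genes, the level was 1562, 1542, and 1575 CPM in the control and 1475, 1481, and 1445 CPM with Arg, with each Arg library below each control.

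ISG15 was at 120.4, 76.7, and 126 CPM in control replicates A, B, and C at 48 h and at 67.9, 71.7, and 66.5 CPM with Arg. The Arg libraries were below all controls, with replicate B close to them, and the log2 fold change was -0.65 ± 0.14 (SE, adjusted p = 0.133, edgeR). Without control replicate B, the log2 fold change was -0.84 (adjusted p = 3.78e-09, edgeR). ISG15 also passed with all libraries by DESeq2 (adjusted p = 0.00107), with no filter on low counts (adjusted p = 4.84e-12, edgeR), and with the replicate letter as a block (adjusted p = 0.00952, edgeR), and it did not pass in the other 5 alternatives. DDX58 was at 58.2, 50.8, and 64.7 CPM in the control and at 50.2, 44.8, and 45.6 CPM with Arg, and IFIT1 at 82.6, 69.9, and 79.4 CPM and at 65.5, 60.5, and 61.3 CPM. Neither gene's groups overlapped, and their log2 fold changes were -0.31 and -0.31 (adjusted p = 0.218 and 0.163, edgeR). IFI6 was at 46.9, 43.1, and 48.2 CPM in the control and at 40.4, 36.8, and 34.0 CPM with Arg, also without overlap, with a log2 fold change of -0.32 (adjusted p = 0.198, edgeR).

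HERC5 was at 54.0, 55.0, and 62.5 CPM in the control and at 44.7, 51.9, and 50.2 CPM with Arg, and OAS1 was at 24.7, 26.1, and 27.3 CPM and at 21.96, 23.8, and 18.3 CPM. IFI44 was at 31.5, 28.0, and 30.7 CPM in the control and at 27.2, 26.1, and 23.1 CPM with Arg. The 3 genes were lower in every Arg library than in any control, with log2 fold changes of -0.23, -0.29, and -0.24 (adjusted p = 0.29, 0.31, and 0.335, edgeR). When control replicate B was left out, OAS1 and IFI44 had log2 fold changes of -0.29 and -0.29 and did not pass (adjusted p = 0.0951 and 0.051, edgeR). OAS2 was at 32.7, 30.8, and 31.0 CPM in the control and at 28.3, 27.9, and 27.0 CPM with Arg, without overlap, and its log2 fold change was -0.19 (adjusted p = 0.384, edgeR, and -0.20 with 0.147 without replicate B). SAMD9 was at 54.5, 50.2, and 56.2 CPM in the control and at 41.5, 51.9, and 47.3 CPM with Arg, with overlap. Its log2 fold change was -0.20 (adjusted p = 0.377, edgeR, and -0.24 with 0.0592 without replicate B). IFITM3 was at 77.2, 78.5, and 83.3 CPM and at 73.5, 81.9, and 77.6 CPM, with overlap, and its log2 fold change was -0.04. DDX60 was at 38.7, 29.3, and 40.0 CPM and at 26.8, 30.5, and 31.2 CPM, and its groups overlapped through control replicate B (log2 fold change -0.29, adjusted p = 0.326, edgeR).

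In several genes, control replicate B at 48 h lay at or near the Arg level. STAT2 was at 32.6, 47.9, and 33.4 CPM in control replicates A, B, and C and at 47.8, 45.0, and 50.8 CPM with Arg, with a log2 fold change of 0.33 (adjusted p = 0.31, edgeR). IRF7 was at 31.9, 18.4, and 30.9 CPM in the control and at 22.01, 17.0, and 16.4 CPM with Arg, with a log2 fold change of -0.55 (adjusted p = 0.241, edgeR). ISG20 was at 6.19, 3.22, and 7.08 CPM and at 3.86, 3.04, and 2.71 CPM, with a log2 fold change of -0.78 (adjusted p = 0.286, edgeR). In these 3 genes, replicates A and C of the control lay outside the Arg range and replicate B inside it. IFIT2 was at 69.2, 81.9, and 59.9 CPM in the control and at 80.8, 86.3, and 83.6 CPM with Arg, and its log2 fold change was 0.25 (adjusted p = 0.315, edgeR). RSAD2 was at 8.97, 16.2, and 7.13 CPM in the control and at 10.1, 8.63, and 9.79 CPM with Arg, so that replicate B was above every Arg library and replicate C below them. Its log2 fold change was -0.19 ± 0.25 (SE) with all libraries and 0.24 ± 0.17 without replicate B, and neither passed the test.

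Without control replicate B, 36 of the genes were tested at 48 h and 11 were called by edgeR, 8 lower (22.2%) and 3 higher (8.33%). That fit keeps only control replicates A and C, which lay close together, and replicate B was singled out after seeing the counts. Over all 14854 genes in that fit, 8.17% were lower and 7.76% higher, 15.9% together. The 8 lower genes were ISG15, IRF7, IFIT1, DDX58, ISG20, DDX60, IFI6, and HERC5, and the 3 higher were STAT2, IFIT2, and PARP14. IRF7 had a log2 fold change of -0.77 (adjusted p = 8.59e-05, edgeR) and STAT2 one of 0.54 (adjusted p = 0.000132, edgeR). Leaving out any other library at 48 h gave 0 calls among the 35 or 36 genes tested, and at most 0.0736% of all genes were called in those fits.

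Whether the Arg effect differed between 24 and 48 h was asked with an interaction term fitted over the 12 libraries, and 36 of the genes entered that test. None was called at an adjusted p under 0.05 by edgeR, and 0 by DESeq2, where 0.0132% of the 15148 genes were, and 3 had an unadjusted p under 0.05, where 6.87% of all genes did (3.06% with a positive difference and 3.80% with a negative one). The positive ones were RSAD2 and IFIT2 and the negative one was HERC6. RSAD2 had a difference of 1.00 ± 0.34 on the log2 scale (SE, unadjusted p = 0.00887, adjusted p = 0.606, edgeR). The differences of IFIT2 and HERC6 were 0.48 and -0.31 (adjusted p = 0.708 and 0.708, edgeR). IFIT2 was at 68.7, 58.2, and 104 CPM in the 24 h control and at 56.6, 74.1, and 66.0 CPM with Arg, with overlap. HERC6 was at 17.4, 19.5, and 21.1 CPM in the 24 h control, at 20.4, 23.5, and 21.1 CPM with Arg, at 29.2, 28.5, and 28.1 CPM in the 48 h control, and at 25.9, 26.9, and 24.6 CPM with Arg. Its groups overlapped at 24 h and each Arg library was below each control at 48 h. Without control replicate B at 48 h, 1 gene of 36, RSAD2, was called, where 0.297% of all genes were called in that fit.

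Levels at 48 h were higher than at 24 h for many of the genes. In the control, 15 of 35 (42.9%) rose and 0 fell at an adjusted p under 0.05 by edgeR, with the same numbers by DESeq2, where 9.90% of the 14449 genes tested rose and 10% fell, 19.9% together. The median log2 fold change was 0.32, against 0.012 over all genes. The 2 time points did not overlap for 18 genes that were higher (51.4%) and 2 that were lower, against 19.2% and 19.7% of all genes. With Arg, 20 of 35 (57.1%) rose and 0 fell by edgeR, where 14.3% of the 14398 genes tested rose and 14.0% fell, 28.3% together. The median was 0.39, against 0.0009 over all genes, and the time points did not overlap for 27 genes that were higher (77.1%) and 0 that were lower, against 21.1% and 21.2% of all genes. At an unadjusted p under 0.05, 18 genes were higher and 1 was lower in the control, where 17.1% and 17.0% of all genes were, 34.1% together. With Arg, 25 were higher and 0 lower, where 19.3% and 19.2% of all genes were, 38.5% together.

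The genes that rose in both arms numbered 14 of 35, where 7.23% of the 14057 genes tested in both arms did. They were IFIH1, STAT2, IFIT3, MX1, OAS1, OAS3, BST2, IFITM1, IFITM3, PARP9, PARP14, IFI6, IFI35, and SAMD9. BST2 went from 160.5, 155, and 149 CPM at 24 h to 234, 248, and 231 CPM at 48 h in the control and from 152, 196, and 212 CPM to 273, 245, and 256 CPM with Arg. It rose 1.54 times in the control (log2 0.62 ± 0.07 SE, adjusted p = 0.000884, edgeR) and 1.38 times with Arg (adjusted p = 0.00089, edgeR). STAT2 rose by 0.92 ± 0.17 on the log2 scale in the control (SE, adjusted p = 0.00527, edgeR) and by 0.57 ± 0.10 with Arg (SE, adjusted p = 0.000201, edgeR), without overlap between the time points in either arm. IFI6 rose 1.46 times in the control and 1.39 times with Arg (adjusted p = 0.00441 and 0.00231, edgeR). OAS1 rose 1.49 and 1.61 times (adjusted p = 0.0117 and 0.000472, edgeR).

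IFIT3 was at 56.3, 55.2, and 68.1 CPM in the 24 h control and at 76.9, 93.1, and 77.6 CPM in the 48 h control, and it rose by 0.47 ± 0.11 (SE, adjusted p = 0.0118, edgeR). PARP14 was at 22.5, 22.8, and 24.3 CPM with Arg at 24 h and at 36.7, 36.9, and 37.4 CPM with Arg at 48 h, and it rose by 0.67 ± 0.09 (SE, adjusted p = 1.99e-05, edgeR). Both genes were higher at 48 h in every library of the arm. MX1 went from 30.7, 31.8, and 28.8 CPM to 47.0, 48.6, and 42.3 CPM with Arg (log2 0.60, adjusted p = 6.73e-05, edgeR) and was at 51.3, 45.8, and 46.8 CPM in the 48 h control, and OAS3 from 66.8, 75.3, and 76.2 CPM to 98.3, 103, and 101 CPM (log2 0.47, adjusted p = 0.000115, edgeR). HERC6 was called higher in the control and not with Arg, at adjusted p-values of 0.00612 and 0.0749 by edgeR, and its time points did not overlap in either arm. DDX60, HERC5, IFIT2, OASL, RSAD2, and SAMD9L were called higher with Arg and not in the control. Over all genes tested, 14.3% were called higher with Arg and 9.90% in the control. The share called in a single arm was not read out, so these numbers cannot be read as results about these genes alone.

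Of those 6 genes called higher with Arg and not in the control, DDX60, HERC5, OASL, and RSAD2 are also among the 8 that fell with Arg at 24 h. The share of all genes with both of these calls was not read out. OASL was at 45.3, 58.1, and 56.6 CPM with Arg at 24 h and at 79.7, 77.9, and 72.7 CPM with Arg at 48 h (log2 0.53, adjusted p = 0.000278, edgeR), while the controls were at 84.4, 83.1, and 84.8 CPM at 48 h. RSAD2 rose by 0.69 ± 0.17 with Arg (SE, adjusted p = 0.00391, edgeR), and its log2 fold change in the control was -0.31 with a SE of 0.28. The comparison over time with Arg shares its 24 h Arg libraries, and that in the control its 24 h control libraries, with the comparison of Arg and control at 24 h. That the rise with time differed between the arms is the interaction given above, and it was not called for any of these genes. USP18 was lower at 48 h than at 24 h in each control library, at 17.0, 15.6, and 17.0 CPM and then 13.7, 13.6, and 13.1 CPM, and did not pass the test (log2 fold change -0.29, adjusted p = 0.116, edgeR). The number called in the control depended on the libraries. Without control replicate A at 24 h, 5 of the 35 genes and 5.59% of all genes were called, and without replicate C at 24 h 7 and 6.70%. Without replicate A at 48 h, 9 and 12.4% were called, and without replicate C at 48 h 9 and 15.5%. Without control replicate B at 48 h, 15 of the 35 genes and 16.4% of all genes were called, 14 of the 15 higher. The lower one was RSAD2 (log2 fold change -0.73, adjusted p = 0.0373, edgeR), and IFITM1 no longer passed (adjusted p = 0.114, edgeR). With Arg, the number called ranged from 16 to 20, and the share of all genes from 19.8% to 24.8%.

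**Figure D3:**
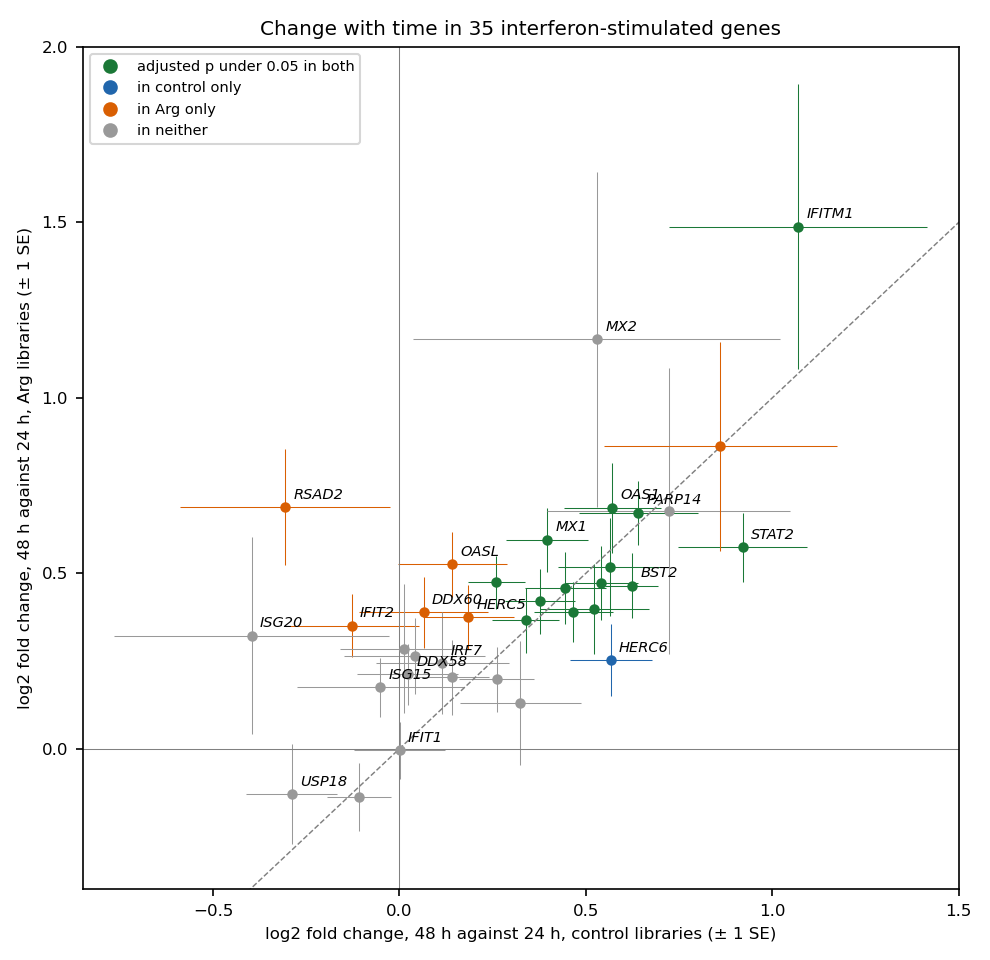
Log2 fold change of 48 h against 24 h for 35 interferon-stimulated genes, in the control (horizontal) and with Arg (vertical), with bars of ± 1 SE, a dashed line of equal change, and colors for the calls at an adjusted p under 0.05 by edgeR. In green are 14 genes called in both arms, in orange 6 called with Arg and not in the control, and in blue HERC6.

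**Figure D4:**
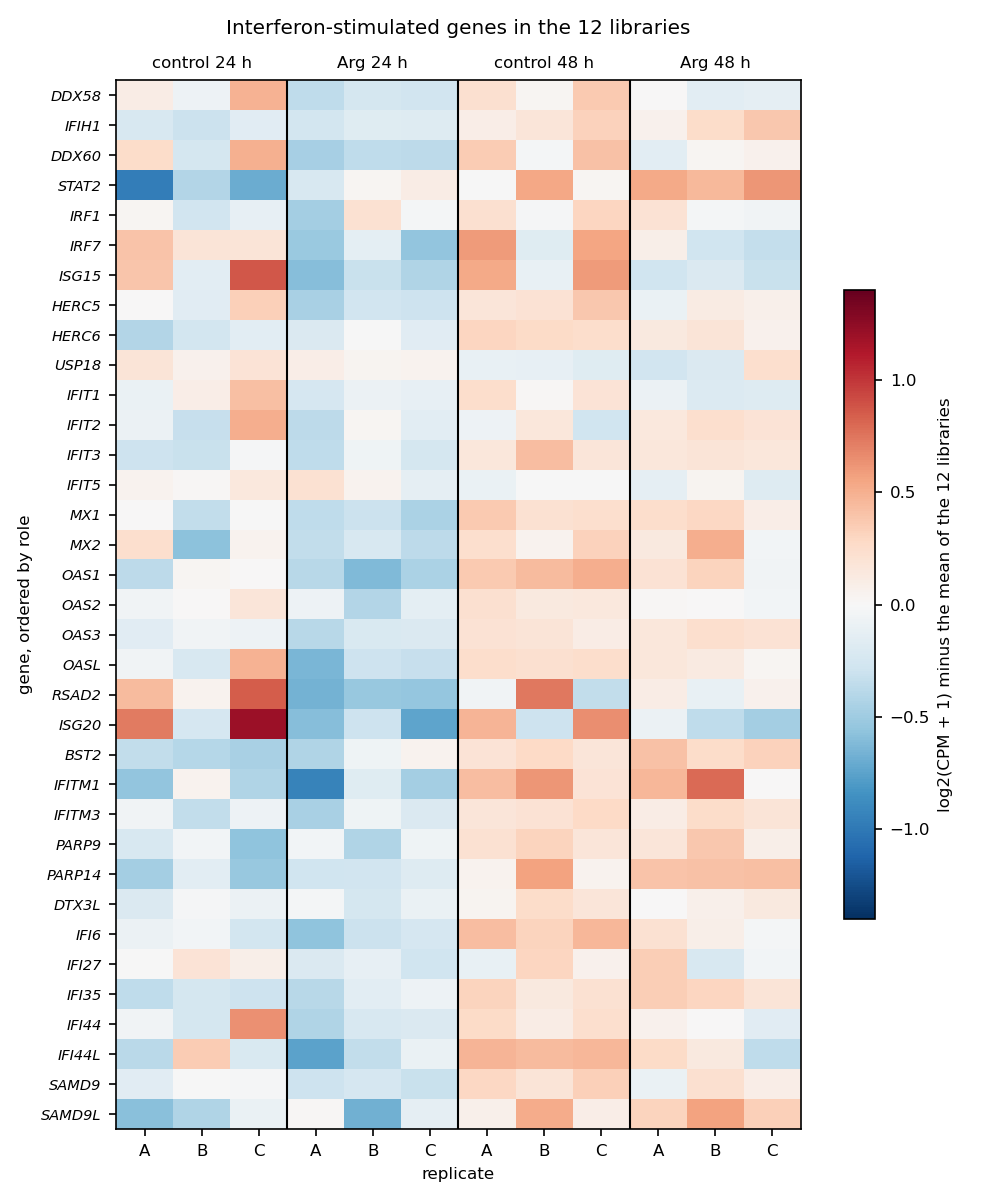
Log2(CPM + 1) of the 35 interferon-stimulated genes with at least 200 counts over the 12 libraries, minus each gene's mean over the libraries, ordered by role and by group and replicate. The Arg libraries at 24 h are mostly blue (low) and the 48 h libraries mostly red (high). In genes that rose with time, such as BST2, STAT2, and IFIH1, the 24 h controls are low as well. Control replicate B at 48 h differs from A and C in STAT2, IRF7, ISG15, RSAD2, and ISG20.

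The remaining genes of the pathway were read from lists of its parts. Transcripts of the interferons themselves were at the edge of detection. Of 21 ligand genes (type I, type III, and IFNG), 13 had 0 counts in all 12 libraries, which allows at most 3 counts, or 0.156 to 0.179 CPM, in a library. The other 8 had 69 counts in all, with the most in IFNL1 (22 counts, at most 8 in a library), and none could be tested. At 24 h, mean levels of IFNE, IFNL1, IFNL3, and IFNK were higher in the control and those of IFNB1, IFNW1, and IFNL2 higher with Arg. Each control library held more IFNE (18 counts in all) than any Arg library. At 48 h, IFNE was at 0, IFNW1 was about equal, and the others were higher in the control. IFNL1 had means of 0.186 and 0.0366 CPM (control and Arg) at 24 h and 0.141 and 0.0384 CPM at 48 h. These differences were not tested. Of 14 genes for receptors and signaling, 12 were tested and 1, IFNAR1, a subunit of the type I receptor, was called at 24 h, where 6.63% of all genes were. It was at 54.0 ± 1.87 CPM in the control and 68.5 ± 5.21 CPM with Arg (SD, n = 3) and rose by 0.34 ± 0.09 (SE, adjusted p = 0.0298, edgeR). IFNAR2 (75 counts over all libraries) and IL10RB (86 counts) overlap AP000295.1, which had 0 counts, so their low counts are uncertain. JAK1, a kinase of the receptors, was not called at either time point with all libraries.

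Of 11 tested genes that act in sensing upstream of interferon, such as MAVS and TBK1, 0 were called at either time by edgeR. Of all genes, 6.63% were called at 24 h and 0.117% at 48 h. At an unadjusted p under 0.05 by edgeR were 3 of the 11 at 24 h and 1 at 48 h, where 22.8% and 13.4% of all genes were. Of 27 further interferon targets tested at 24 h, 2 rose and 0 fell, where 2.79% and 3.84% of all genes did. EPSTI1 rose from 31.6 ± 1.72 to 43.7 ± 1.89 CPM (SD, n = 3, adjusted p = 0.00683, edgeR) and LAP3, an aminopeptidase, from 120 ± 9.05 to 150 ± 2.0 CPM (SD, n = 3, adjusted p = 0.0252, edgeR). The median log2 fold change of this list was -0.00039, against -0.25 for the 35 genes above. Of 17 genes of antigen presentation, 3 fell at 24 h and 0 rose, against the same shares of all genes. HLA-B, HLA-E, and B2M, which form class I molecules at the cell surface, fell by 0.32, 0.37, and 0.38 on the log2 scale (adjusted p = 0.0295, 0.0111, and 0.0184, edgeR). The estimates of 15 of the 17 were below 0, with a median of -0.13. At 48 h, 0 genes of any of these lists were called by edgeR, and 1 of 12 receptor and signaling genes, 4 of 29 further targets, and 8 of 17 antigen presentation genes had an unadjusted p under 0.05, where 13.4% of all genes did. Without control replicate B, where 15.9% of all genes were called, 6 of 17 antigen presentation genes were called lower. In that fit, 4 of 29 further targets were called, 2 higher and 2 lower, 2 of 13 receptor and signaling genes were higher (IFNAR1 and JAK1), and 1 of 11 sensing genes, MAVS, was higher. With all libraries, B2M had the smallest adjusted p of the antigen presentation list, 0.133.

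The promoter core was also set beside the calls at 24 h. Of the 8 genes that fell, 6 had a promoter entry and 5 of these (83.3%) held the core of GAAA, any 2 bases, and GAAA, namely ISG15, HERC5, RSAD2, ISG20, and DDX60. Of the 24 genes with an entry and no call, 16 (66.7%) held it. These 24 include IRF9 and XAF1, which did not pass the filter on low counts and so could not be called, and neither held the core. The difference between these shares was not tested. Another element, TTCNNNGAA (N for any base), was searched in the same windows. It was held by 10 of the 31 genes with an entry (32.3%) and by 2208 of all 27305 genes (8.09%). Its shares ran the other way. Of the 6 genes that fell and had an entry, 1 (16.7%), DDX60, held it. Of the 24 with no call, 9 (37.5%) held it, IRF9 among them. This difference was not tested either.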

How the data were processed

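Poly(A) RNA of 12 libraries was sequenced as paired-end reads. According to the methods and the submitters' processing notes, the authors used fastp for trimming, STAR for alignment to GRCh38 (hg38), and featureCounts for the counts of each gene. Tool versions, the annotation release, and the strand setting are not given in the sources used here. The deposited values are raw counts, whole numbers per gene and library, and all 12 columns of counts were used, with 0 left out. Depth was 16542243 to 19040964 counts per library, and where a gene had 0 counts the upper limit of 3 counts covers counting error only.

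Counts were tested with edgeR 4.0.16 (R 4.3.3, limma 3.58.1) by the quasi-likelihood test, with TMM factors and filterByExpr, in a fit of the 2 groups compared, and in a model of all 12 libraries for the interaction. P-values were two-sided and adjusted by Benjamini–Hochberg over all genes tested. CPM used a single set of TMM factors over the 12 libraries, and FPKM were computed here from the deposited counts, library sizes, and exonic lengths. Promoters came from RefSeq (GRCh38.p14). Results that need certain items are not reported here. Values in every library of the comparison at hand are given for genes with an unadjusted p under 0.05 with Arg or in the interaction, for the 3 genes highest per exonic length, and for up to 6 genes per arm over time. Ranges or counts are given for the rest. The genes, their roles, and the lists (ligands, receptors and signaling, sensing, further targets, antigen presentation, and cell type markers) were chosen with earlier results of these data known.

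Alternatives were DESeq2 1.42.0, its size factors in edgeR, library size alone, no filter, a mean of at least 10 counts, all 12 libraries in 1 model, the replicate letter as a block, each library left out, and a correction for gene length, the last chosen after seeing the data. The test was checked on simulated counts. At 24 h (14054 genes), 100 of 100 genes given the larger change and 58 of 100 given the smaller were called, with 11 false calls, and at 48 h (14318 genes) these were 100, 60, and 14.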

Additional observations from a re-analysis of the deposited data

How the results depend on the processing

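No called gene changed direction, and RSAD2 at 48 h, which was not called, changed sign without control replicate B (log2 fold change 0.24). Of the alternative values of single genes, 583 kept direction and side of the threshold, 25 passed it newly, and 23 no longer passed. At 24 h, 8 to 12 genes were called over the alternatives other than leaving out a library, with 12 when no filter was applied and 8 by DESeq2, where OASL did not pass (adjusted p = 0.197). Leaving out a library gave 4 to 11 genes and medians of -0.28 to -0.16. At 48 h, DESeq2 called 1 gene (ISG15), no filter gave 5 genes, 4 of them lower, and leaving out a library gave 0 to 11 genes and medians of -0.13 to -0.093, with 11 genes without control replicate B. For time in the control, the median was 0.38 with library size alone and 0.27 with the length correction, and leaving out a library gave 5 to 15 genes and medians of 0.27 to 0.37. With Arg these ranged from 16 to 20 genes and from 0.34 to 0.46, and library size alone gave 25 genes. For the interaction, 1 gene (RSAD2) was called with no filter, and leaving out a library gave 0 to 1. The cause of these shifts was not tested. Shares of all genes called are given above for fits that left out 1 library. They were not read out for the other alternatives, here, with DESeq2 above, or with the replicate block below. The counts of those alternatives can therefore not be read as results about these genes alone.

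A fit with the replicate block (the letter as a term) gave 9 genes at 24 h, 1 at 48 h (ISG15, adjusted p = 0.00952, edgeR), 16 over time in the control, 20 over time with Arg, and 0 in the interaction. Deviations of libraries with the same letter correlated at -0.115 to 0.225, and in no comparison was every value above 0.1, so the letters were not taken as pairs. With 3 libraries per group, the self-test called 58 of 100 and 60 of 100 of the smaller changes, which limits what a missing call can show. The changes were given only to genes with a mean over 100 counts. Counts were drawn for each gene independently, so no simulated library departed across genes as control replicate B at 48 h did. The self-test can therefore overstate what could be called at 48 h and among genes with few counts.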
